A study of Mus musculus with 8 samples.

Results

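The muscle miRs are the 6 microRNAs (miRs) that mark striated muscle: mmu-miR-1a-3p, mmu-miR-133a-3p, mmu-miR-133b-3p and mmu-miR-206-3p, which fibres of every type hold and which are called pan-muscle here, and mmu-miR-208b-3p and mmu-miR-499-5p, which mark slow fibres (4 and 2 members, written below without the species prefix). They were picked by name from the 1079 murine miRs on the arrays. The callus, the repair tissue at an osteotomy, was taken from the femur of adult CD-1 mice at day 7, and the RNA of each callus was hybridized with 1 dye to 1 array. In the Non-union group (P13 to P16) the gap was 1.8 mm wide and the periosteum around it had been stripped, whereas the Union group (P17 to P20) had a gap of 0.25 mm. All mice, male and female, carried the same intramedullary pin and metallic clip. The group names give the outcome that these gaps are known to lead to, and at day 7 no outcome had been reached.

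A miR is a short RNA that lowers the output of messenger RNAs carrying a match to its seed, the bases near its 5′ end. MiR-1a and miR-133a are transcribed together and act in muscle differentiation and in the proliferation of muscle precursors. MiR-206 is largely confined to skeletal muscle and is known for its rise in regenerating and denervated fibres. MiR-208b and miR-499 are cut from introns of slow myosin heavy chain genes and act to maintain the slow fibre programme. Callus is no muscle, but it lies against the thigh muscles, and the arrays read whole tissue.

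Mature sequences from RefSeq (GRCm38.p6) matched 4 of the 6 miRs. They are shown because the slow-fibre miRs share most of a seed, which differs from those of miR-133b-3p and miR-206-3p, and the capitals mark the seed, bases 2 to 8.
miR-133b-3p: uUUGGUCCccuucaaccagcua
miR-206-3p: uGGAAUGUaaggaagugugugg
miR-208b-3p: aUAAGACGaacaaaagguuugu
miR-499-5p: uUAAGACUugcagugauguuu
MiR-208b-3p and miR-499-5p had the same bases 2 to 7. From miR-208b-3p to miR-499-5p, counted from 1 at the 5′ end, the first 8 bases differed by A1U and G8U. MiR-206-3p (chr1:20679055-20679076, plus strand) and miR-133b-3p (chr1:20682834-20682855, plus strand) came from neighbouring genes, with 3686 bases between Mir206 and Mir133b, and both lay within the long noncoding RNA gene Lincmd1. MiR-208b-3p (chr14:54975710-54975731, minus strand) lay within Myh7, the gene of the slow myosin heavy chain, where RefSeq also lists Gm31251. MiR-499-5p (chr2:155622893-155622913, plus strand) lay within Myh7b, a related myosin gene.

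The scanner software called 324 to 366 miRs detected on the Non-union arrays and 361 to 391 on the Union arrays, and the summed merged signal was 183589 to 279341 units and 227941 to 360063 units, respectively. The merged signal is the software's single value for a miR, as a rule taken over its 40 spots. Each group filled 1 row of a single slide, so that row and group cannot be told apart. The labels number the specimens but do not say how they were processed, so that p-values measure the spread between specimens, and 4 arrays a group limit the precision.

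The pan-muscle miRs were detected on every array, and no difference between the groups in any of them passed the test. Their signals added up to 8.09% to 22.3% of the summed signal in the Non-union group and to 13.8% to 26.6% in the Union group, and the arrays overlapped (p = 0.371, two-sided exact permutation test, n = 4 each). In whole tissue, fewer muscle cells and less of a miR per cell cannot be told apart.

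The merged signal of miR-1a-3p, which promotes differentiation of muscle cells, was 16679.7, 25451, 15343 and 5423 units on P13 to P16 and 46878, 26603, 20033 and 14109 units on P17 to P20. P17 was the highest array and P16 the lowest, as for the summed merged signal of all murine miRs (360063 and 183589 units). The groups overlapped for miR-1a-3p. MiR-133a-3p, its partner in the same transcripts, was at 6195, 9095, 5956 and 2056 units in the Non-union group and at 16076, 9088, 7355 and 5616 units in the Union group. Its arrays fell in the same order at both ends, with P17 highest and P16 lowest.

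MiR-133b-3p, the relative of miR-133a-3p that shares a transcript with miR-206, was at 15081, 19527, 13927 and 4750.4 units on P13 to P16 and at 28475, 17017.5, 14938.5 and 11807 units on P17 to P20. MiR-206-3p was at 7737, 8152, 6704 and 2625 units on P13 to P16 and at 4387, 4195, 6249.5 and 5382 units on P17 to P20. Unlike the other pan-muscle miRs, miR-206-3p was higher on P13, P14 and P15 than on any Union array, and P16 alone made the groups overlap. From the lowest to the highest array the merged signal spanned 8.64-fold for miR-1a-3p, 7.82-fold for miR-133a-3p, 5.99-fold for miR-133b-3p and 3.11-fold for miR-206-3p. No spot of these miRs was saturated.

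**Figure D1:**
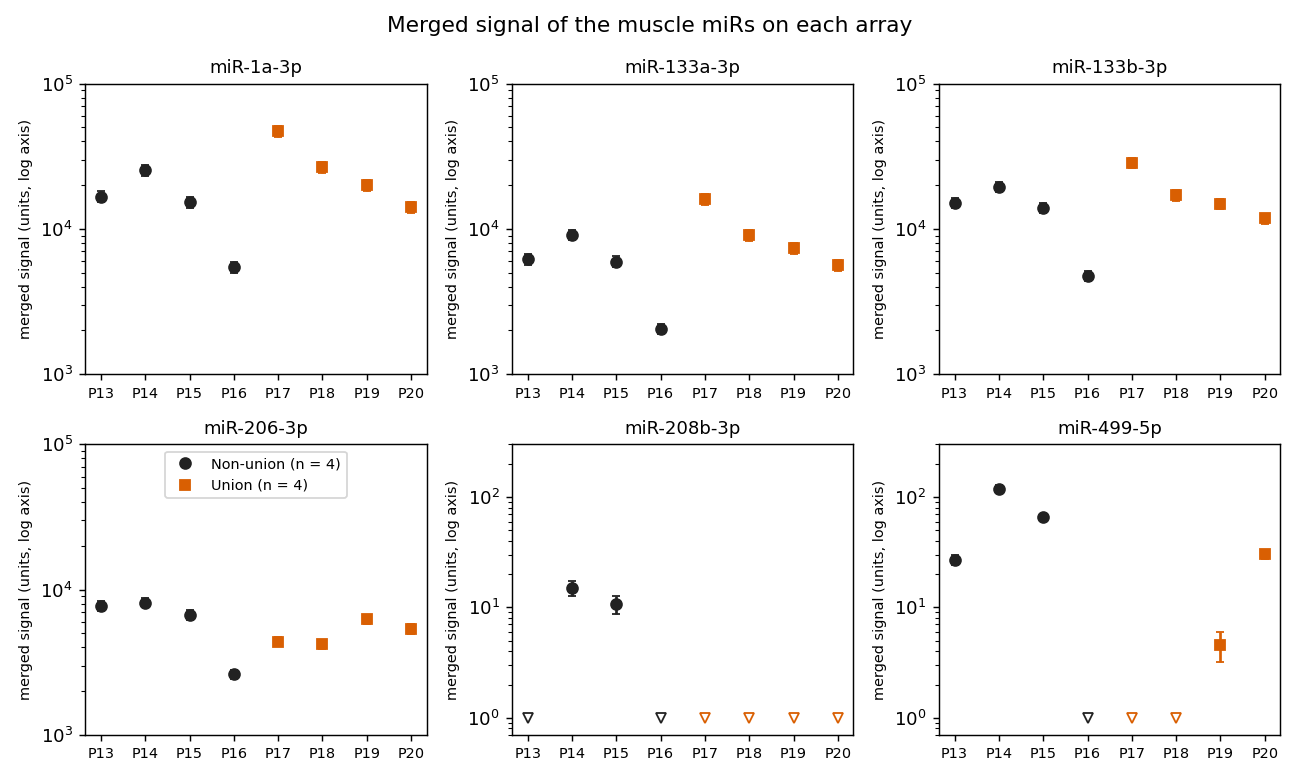
Merged signal of each muscle miR on the 8 arrays (log axis, units), with Non-union arrays as black circles and Union arrays as orange squares; error bars are the software's error of the merged signal, and open triangles mark arrays on which the miR was not detected, placed at 1 without being a measurement. P16, which also had the lowest summed signal, was the lowest array for every pan-muscle miR, and the slow-fibre miRs were detected on some arrays only.

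For the comparison of the groups, log2 signals were quantile normalized and limma was fitted to the 310 miRs that every array detected. MiR-1a-3p was at 14.03 ± 0.59 in the Non-union and at 14.47 ± 0.48 in the Union group (SD, n = 4 each), a log2 difference of -0.45 (SE 0.35, 95% interval -1.23 to 0.34, limma p = 0.229, adjusted p = 0.410, exact permutation p = 0.457). MiR-133a-3p was at 12.46 ± 0.73 and 12.98 ± 0.33, a difference of -0.52 (SE 0.36, 95% interval -1.34 to 0.30, limma p = 0.182, adjusted p = 0.387, exact permutation p = 0.2). Neither difference passed an unadjusted p of 0.05, the study's level of significance, applied here to the limma test, and both intervals reached from more than a doubling in the Union group to a small excess in the Non-union group.

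MiR-133b-3p gave the smallest difference, -0.15 (SE 0.28, 95% interval -0.78 to 0.49, limma p = 0.611, adjusted p = 0.726, exact permutation p = 0.714), from 13.60 ± 0.46 and 13.75 ± 0.35. Its sign depended on the background correction (0.062 with normexp) and on P16 (0.091 without it). MiR-206-3p was at 12.65 ± 0.62 and 12.20 ± 0.48, a difference of 0.44 in the opposite direction (SE 0.35, 95% interval -0.36 to 1.24, limma p = 0.242, adjusted p = 0.422, exact permutation p = 0.314). Without P16, the difference of miR-206-3p was 0.77 (SE 0.30, adjusted p = 0.506 with limma) and passed the unadjusted threshold, so that its call rested on this array.

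Of the 4 pan-muscle miRs, 0 passed the threshold, against 13.9% of all miRs tested (limma, 43 of 310, of which 30 were higher and 13 lower in the Non-union group). After Benjamini-Hochberg adjustment 1 of the 310 remained (0.323%), which was no muscle miR. Of the 4, 0 reached a fold change of 2, against 8.39% of all miRs tested, and 3 had a negative difference of any size, against 40.6%. All 4 pan-muscle miRs overlapped between the groups, whereas 3.87% of all miRs tested did not. The median log2 difference was -0.30 for the pan-muscle miRs and 0.15 for all miRs tested. Without normalization these medians were -0.66 and -0.10, and the single differences were -0.83 for miR-1a-3p, -0.78 for miR-133a-3p, -0.53 for miR-133b-3p and 0.21 for miR-206-3p. Each miR was read by 2 probes, and the signs of the unnormalized differences were the same for both probes of every pan-muscle miR. On a single probe they were -0.85 and -0.83 for miR-1a-3p, -0.74 and -0.79 for miR-133a-3p, -0.38 and -0.58 for miR-133b-3p, and 0.27 and 0.17 for miR-206-3p.

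**Figure D2:**
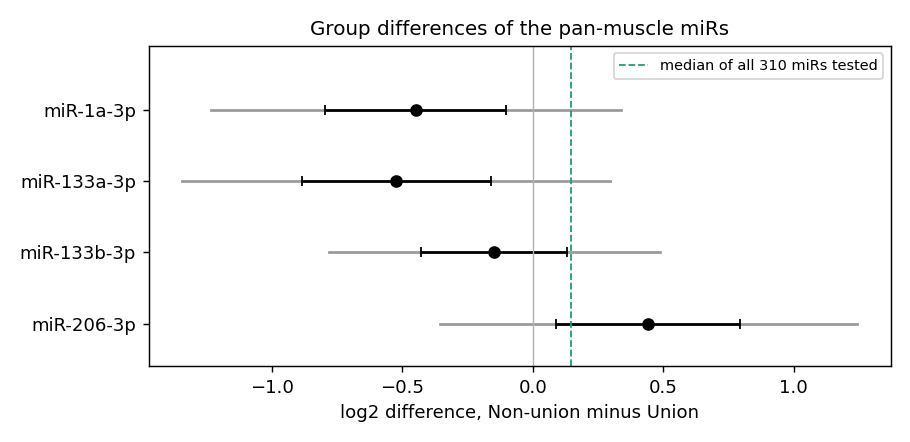
Log2 difference of each pan-muscle miR, Non-union minus Union (points, quantile normalized, n = 4 each), with the limma SE as black bars, the 95% interval as grey lines and the median of all 310 miRs tested as a dashed line. All 4 intervals include 0, and miR-206-3p lies on the other side of 0 from the rest.

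How the pan-muscle miRs moved against each other was then compared through ratios within each array, which need no normalization between arrays. These pairs were chosen after the single values had been seen, and all 6 pairs were computed. The deposited signals were used, since quantile normalization left the brightest miRs with few distinct values, for example 4 for miR-1a-3p over the 8 arrays. The ratio of miR-206-3p to miR-1a-3p was 0.464, 0.320, 0.437 and 0.484 in the Non-union group and 0.0936, 0.158, 0.312 and 0.381 in the Union group. The lowest Non-union array, P14, lay between P19 and P20 of the Union group, so that the groups overlapped.

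On the log2 scale this ratio was higher by 1.04 in the Non-union group (2.06-fold, two-sided exact permutation test, p = 0.0571, adjusted over the 6 pairs 0.0857). The ratio of miR-206-3p to miR-133a-3p was higher by 0.99 (exact permutation p = 0.0571, adjusted 0.0857) and that to miR-133b-3p by 0.74 (exact permutation p = 0.0857, adjusted 0.103). These did not pass, and among all 47895 pairs of miRs tested a ratio difference at least as large was found in 14.2%, 16.2% and 29.6%, respectively. Within the Union group the ratio was lowest on P17 and P18. Without P20, the ratio of miR-206-3p to miR-1a-3p differed by 1.34 and that to miR-133a-3p by 1.25 (exact permutation p = 0.0286 each). Without any other single array neither passed, and the exact permutation p reached 0.143 for both. After quantile normalization over all murine miRs the ratios to miR-1a-3p, miR-133a-3p and miR-133b-3p differed by 0.89, 0.97 and 0.59 (exact permutation p = 0.171, 0.0571 and 0.257).

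The ratio of miR-133b-3p to miR-133a-3p, close relatives that are made from different transcripts, was 2.43, 2.15, 2.34 and 2.31 in the Non-union group and 1.77, 1.87, 2.03 and 2.10 in the Union group. Every Non-union array lay above every Union array, the narrowest gap being that between P14 and P20. The log2 difference was 0.25, or 1.19-fold (exact permutation p = 0.0286, the smallest that 4 arrays against 4 allow, adjusted over the 6 pairs 0.0857). Over all pairs of miRs, 5.47% did not overlap, and 71.4% had a difference at least as large. Read by single probes, the log2 difference was 0.16 to 0.41, and the groups did not overlap in 3 of the 4 combinations of probes. Each of the ratios of miR-206-3p to miR-133a-3p and miR-133b-3p had 1 such combination, and the other pairs had 0. The combinations share probes and are not separate readings, and their share over all miRs was not computed. The log2 ratio between the 2 probes of miR-133b-3p itself was 1.61 in the Non-union and 1.82 in the Union group (difference -0.20, overlapping). The mature forms of these miRs are nearly identical, and cross-hybridization between their probes was not tested. Under quantile normalization the difference was 0.38 and no longer passed (exact permutation p = 0.0857), and the exact permutation p was 0.0571 when P13, P15, P16, P17 or P18 was left out. Leaving out an array cannot make separate groups overlap, and the difference stayed between 0.21 and 0.29.

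The ratio of miR-133b-3p to miR-1a-3p differed by 0.30 (exact permutation p = 0.0571, adjusted 0.0857), and 66.6% of all pairs of miRs had a difference at least as large. That of miR-1a-3p to miR-133a-3p, which are made from the same transcripts, was the steadiest, with 2.69, 2.80, 2.58 and 2.64 in the Non-union group and 2.92, 2.93, 2.72 and 2.51 in the Union group. Its log2 difference was -0.047 (exact permutation p = 0.429), from 1.42 ± 0.051 and 1.47 ± 0.10 (SD, n = 4 each). A higher ratio in the Non-union group was thus measured for miR-206-3p over each other pan-muscle miR and for miR-133b-3p over both miR-1a-3p and miR-133a-3p. Of the 6 pairs 1 did not overlap, against 5.47% of all pairs of miRs. The 6 ratios share the same 4 signals and are not separate results.

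**Figure D3:**
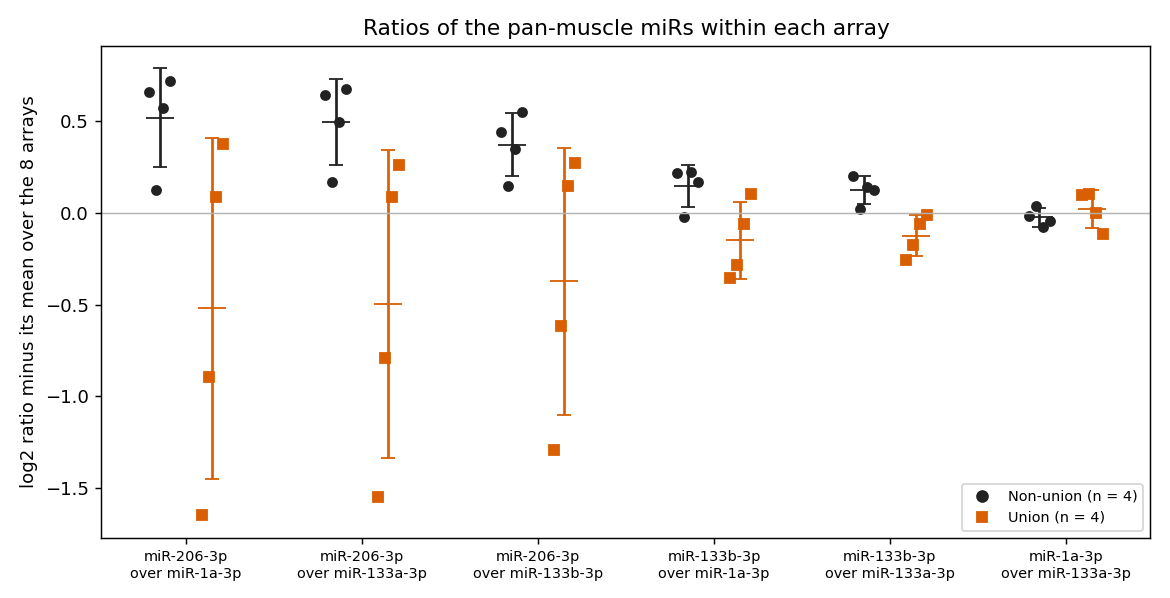
Log2 ratio of each pair of pan-muscle miRs minus its mean over the 8 arrays, from deposited merged signals, with 1 point an array (Non-union as black circles, Union as orange squares) and bars for the group mean ± SD (n = 4). The groups do not overlap for miR-133b-3p over miR-133a-3p, and P17 and P18 lie lowest for every ratio with miR-206-3p.

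From callus to callus, miR-133b-3p, miR-133a-3p and miR-1a-3p rose and fell together, and miR-206-3p had lower correlations with them. Over the 8 arrays the unnormalized log2 signals of miR-1a-3p and miR-133a-3p had a Pearson's r of 0.998 (exact permutation p = 4.96e-05, adjusted over 6 pairs 0.000223) and a Spearman's rho of 0.976 (exact permutation p = 0.000397, adjusted 0.00119). MiR-133b-3p had an r of 0.981 with miR-1a-3p (exact permutation p = 0.000124, adjusted 0.000248, rho 0.952 with p = 0.00114) and of 0.988 with miR-133a-3p (exact permutation p = 7.44e-05, adjusted 0.000223, rho 0.976 with p = 0.000397). Without P16 and P17, the arrays farthest from the median, these r were 0.997, 0.901 and 0.900. These signals were not normalized, and the part of overall array brightness in r was not tested. Nor was the part of cross-hybridization between the probes of miR-133a-3p and miR-133b-3p.

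With miR-206-3p, r was 0.404 for miR-1a-3p, 0.440 for miR-133a-3p and 0.557 for miR-133b-3p (exact permutation p = 0.311, 0.265 and 0.151, rho 0.0952, 0.238 and 0.286 with p = 0.840, 0.582 and 0.501). Without P16 and P17 these r were -0.17, -0.15 and 0.24, whereas the deviations from the group means of all 8 arrays had r of 0.595, 0.637 and 0.704. The relation of miR-206-3p to the other pan-muscle miRs thus depended on which arrays and which centring were used. After quantile normalization the r among miR-1a-3p, miR-133a-3p and miR-133b-3p were 0.818, 0.809 and 0.857, in the same order of pairs (exact permutation, adjusted p = 0.0357 each). Without P16 and P17 they were 0.316, 0.316 and 0.369. On the arrays left, normalization had tied miR-133b-3p at 13.83 on P13, P14, P15, P18 and P19. It had tied miR-1a-3p at 14.07 on P13, P15, P19 and P20 and at 14.70 on P14 and P18. With such ties these r cannot show whether the relation rested on P16 and P17.

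The slow-fibre miRs were detected on some arrays only, as were 10.4% of all murine miRs, and the difference between the groups in their detection did not pass the test. MiR-208b-3p was detected on P14 and P15 of the Non-union group, with merged signals of 14.96 and 10.7 units, and on 0 of 4 Union arrays (two-sided Fisher's exact test, p = 0.429). MiR-499-5p was detected on P13, P14 and P15, at 27.2, 119 and 65.7 units, and on P19 and P20 of the Union group, at 4.59 and 30.3 units (two-sided Fisher's exact test, p = 1). Its merged signal on P19 held a single probe, and those on the other arrays that detected it held both. The arrays with miR-208b-3p were those on which miR-499-5p was brightest. Neither miR entered the limma fit, which needs detection on all arrays. A pattern of at least 2 Non-union arrays and no Union array was shared by 0.278% of the 1079 murine miRs, namely miR-208b-3p, miR-1188-3p and miR-181a-1-3p (named after their values were seen), and the reverse pattern was found for 2.50%.

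The spots themselves give values on every array, as the mean background-subtracted signal over the 40 spots without those flagged as outliers by the software. For miR-208b-3p this was 2.32, 19.6, 13.9 and -2.81 units on P13 to P16 and -3.11, -3.72, -1.76 and 4.10 units on P17 to P20. P14 lay 5.14 and P15 2.85 standard deviations of the negative control spots above their mean, and all other arrays lay at or below 0.035. On P14, 19 of the 40 spots were well above background, and on P15 it was 3. The means of 8.27 ± 10.3 and -1.12 ± 3.58 units (SD, n = 4 each) differed by 9.39 units, and the groups overlapped (two-sided exact permutation test, p = 0.2). This difference was smaller than the SD of the Non-union group but larger than that of the Union group. No fold is given for miR-208b-3p, because the mean of its Non-union arrays, undetected ones included, stood against the detection floor of the Union arrays at 1.49 on the log2 scale after quantile normalization but at -1.02 on the deposited scale.

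For miR-499-5p the spot means were 35.4, 157.0, 85.5 and 7.17 units on P13 to P16 and 10.11, 2.91, 11.2 and 39.8 units on P17 to P20. P14 and P15 were the highest arrays, while P16 lay below P17, P19 and P20. In standard deviations of the negative control spots above their mean, P14 lay at 50.8, P15 at 26.0, P20 at 12.4 and P13 at 10.5, and on these arrays all 40 spots were well above background. P17 and P19 lay at 2.39 and 2.41, P16 at 0.78 and P18 at -0.29. The means of 71.3 ± 65.7 and 16.01 ± 16.3 units (SD, n = 4 each) overlapped (two-sided exact permutation test, p = 0.229). These spot-level tests were chosen after the detection calls had been seen.

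**Figure D4:**
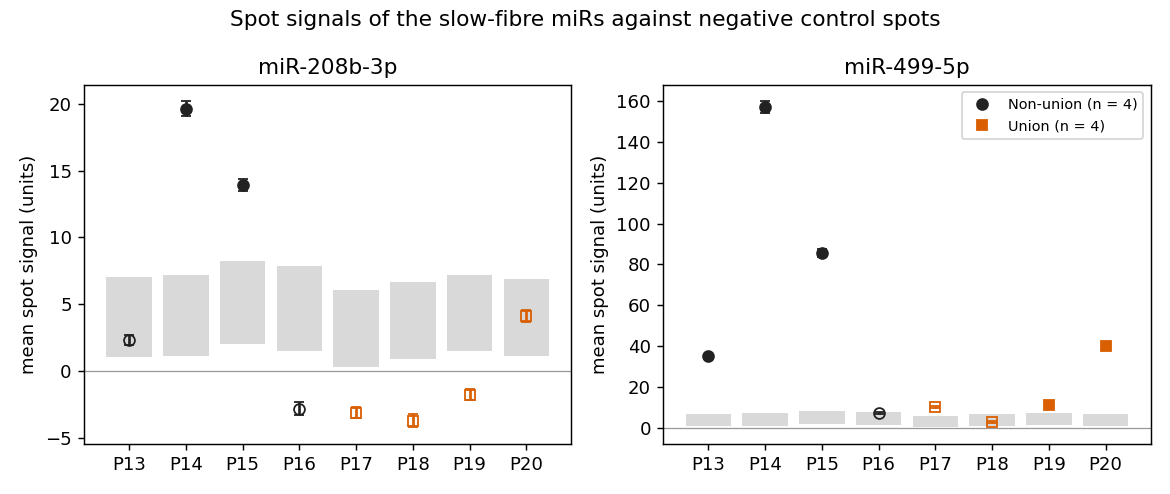
Mean background-subtracted spot signal of miR-208b-3p and miR-499-5p on each array (units, error bars SE over spots), with open symbols where the miR was not detected and grey bands for the mean ± SD of the negative control spots. MiR-499-5p lies far above the band on P13, P14, P15 and P20 and just above it on P17 and P19, and miR-208b-3p lies above it on P14 and P15.

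Whether slow-fibre and pan-muscle miRs moved unequally could be read only in part, since the planned ratio of merged signals needs detection on all arrays and here gives values alone. Where detected, miR-499-5p stood at 43.9, 131 and 110 per 10000 units of miR-133a-3p on P13, P14 and P15 and at 6.24 and 53.9 on P19 and P20. On P19 the merged signal of miR-499-5p was that of a single probe (4.59 units), without its other probe (3.90 units). On P13, P14, P15 and P20 it held both probes, so that the ratio on P19 is not comparable with theirs. MiR-208b-3p stood at 16.5 and 17.97 per 10000 on P14 and P15. The ratios are read only between arrays, since levels of different probes cannot be set against each other.

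The spot means gave no measured size for this comparison, because miR-499-5p was not detected on P16, P17 and P18 and its spot mean on P18 lay below the mean of the negative control spots. Taken as they are, none of the 4 log2 ratios of the spot means of miR-499-5p to a pan-muscle miR passed the test. The exact permutation p was 0.0857 against miR-1a-3p, miR-133b-3p and miR-133a-3p and 0.143 against miR-206-3p (two-sided, adjusted over the 4 pairs 0.114 and 0.143), and the groups overlapped in each.

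The other arms of the precursors and the close paralogs, 11 in all, were mostly dark. On all arrays 2 were detected, miR-133a-5p and miR-208a-5p, and 8 were detected on none, among them miR-208a-3p, the marker of heart muscle. MiR-133a-5p, the partner arm of miR-133a-3p, was at 333.6, 449.4, 311.1 and 92.8 units in the Non-union group and at 686.9, 421.4, 345.8 and 289.9 units in the Union group, with P17 highest and P16 lowest as for miR-133a-3p. Its log2 difference of -0.52 (SE 0.38, limma adjusted p = 0.399) did not pass. MiR-1a-1-5p, the partner arm of miR-1a-3p from 1 of its genes, was detected on P17, P18 and P19 at 8.18, 3.69 and 2.83 units and on no Non-union array. The lowest detected signals on these arrays were 2.39, 2.30 and 2.16 units. Detection on at least 2 Union arrays and no Non-union array was found for 2.50% of the 1079 murine miRs, and this difference was not tested.

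Of 12 miRs with a described role in muscle differentiation, 11 were analysed here and 10 were detected on all arrays. Among these, 2 were higher in the Non-union group and 0 lower (limma), against 9.68% and 4.19% of all miRs tested. They were miR-31-5p, a repressor of Myf5 translation in quiescent satellite cells (log2 difference 1.52, SE 0.43, adjusted p = 0.288), and miR-214-3p, which is also abundant in mesenchymal cells (0.75, SE 0.30, adjusted p = 0.322). The paper had already reported miR-31-5p as relevant from these same arrays, so that its difference was known beforehand. MiR-29c-3p, which promotes myogenic differentiation, had a difference of -0.69, which did not pass. The median difference over the list was 0.065, against 0.15 for all miRs tested, and miR-489-3p, known from quiescent satellite cells, was detected on no array.

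Markers of other tissues were read on the same arrays. The cartilage list (the arms of miR-140 and miR-455) had 4 of 4 members higher in the Non-union group at an unadjusted limma p under 0.05 (median log2 difference 1.43), against 9.68% of all miRs tested, and 0 of the 4 passed after adjustment (adjusted p = 0.288 to 0.313, limma). The paper had already reported all 4 as relevant miRs from these same arrays. The share of 4 of 4 was thus known beforehand and is no test of enrichment. The mean log2 signal of the cartilage list ranged from 6.47 to 8.69 in the Non-union group and from 5.67 to 6.93 in the Union group. P16, the array with the least pan-muscle signal, held the highest value, 8.69. The mesenchymal list (miR-199a-3p, miR-199a-5p and miR-214-3p) had 3 of 3 members higher at the same level, against the same 9.68%. It shares miR-214-3p with the muscle differentiation list, and 0 of its 3 members passed after adjustment (adjusted p = 0.313 to 0.322, limma). Of these members, miR-199a-3p was among the relevant miRs of the paper. The mean log2 signal of the mesenchymal list ranged from 10.82 to 11.85 and from 10.23 to 11.35. Of the myeloid and leukocyte list 1 of 3 members was lower, against 4.19% of all miRs tested. This was miR-223-3p, with 10.75 to 11.32 in the Non-union and 11.42 to 13.83 in the Union group and no overlap (log2 difference -1.13, adjusted p = 0.346, limma). Of all miRs tested, 3.87% did not overlap. MiR-223-3p, too, was among the relevant miRs of the paper. The mean of the whole list ranged from 9.53 to 10.12 and from 10.01 to 11.997, the highest value being that of P20. The red blood cell list had 0 of 3 members passing, and the list of smooth muscle and stroma 0 of 2 (limma, both directions), against 13.9% of all miRs tested. The part of these tissues in the ratios and differences of the muscle miRs was not tested.

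The miRs whose normalized pattern over the 8 arrays was most like the mean of the pan-muscle miRs, among 306 compared, were 3 of the miR-378 family, whose best known member is processed from an intron of the metabolic gene Ppargc1b. As a description, r was 0.986 for miR-378b, 0.978 for miR-378-5p and 0.941 for miR-378-3p, and without normalization 0.963, 0.993 and 0.945. Without P16 they were 0.912, 0.849 and 0.938. None of them was called, with log2 differences of -0.13, -0.18 and -0.11. The least alike were miR-150-5p, known from lymphocytes (r = -0.919), miR-720 (-0.811) and miR-148a-3p (-0.806), and without P16 their r were -0.425, -0.228 and -0.419. For miR-720 the sign turned without normalization (0.133). The mean of the pan-muscle miRs was 12.33 on P16 and between 13.10 and 13.61 on the other arrays. The slow-fibre miRs, not detected on all arrays, could not be used in such a comparison.

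**Figure D5:**
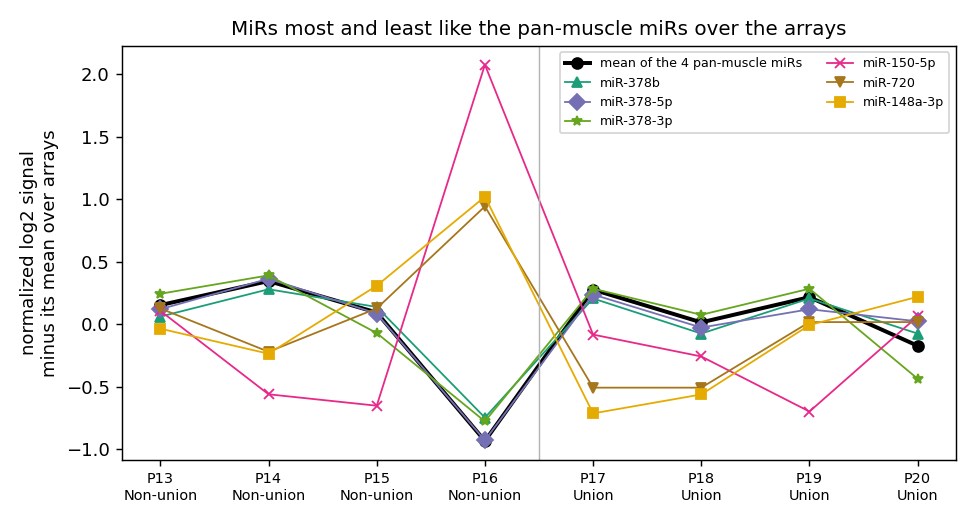
Normalized log2 signal over the 8 arrays minus its mean over arrays, for the mean of the pan-muscle miRs (thick black line), the 3 miRs most like it and the 3 least like it. The miR-378 lines follow the mean down to its lowest array, P16, where the 3 least alike are highest.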

How the data were processed

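RNA of 8 calluses was measured on 8 one-colour (Cy3) Agilent miRNA arrays of 1 slide with 1 scan. The authors extracted spot signals with Agilent Feature Extraction 10.10.1.1, per the file headers. For each array they deposited the intensity values per spot and probe, a merged signal per miR and detection calls. The merged signal covers, as a rule, the 40 spots of a miR and is 0.1 where the miR was not detected. A table of log2 values that the authors deposited served as an alternative. For the main values, the merged signals (1079 murine miRs) were taken to log2 and then quantile normalized, the order given by the study's methods. The 310 miRs detected on all arrays were fitted with limma 3.58.1 (R 4.3.3, lmFit and eBayes, two-sided, Benjamini-Hochberg over the 310). Single values and ratios were compared by enumerating all 70 arrangements of the arrays (Python 3.11.15, scipy 1.17.1, numpy 2.4.6, pandas 2.3.3), and matplotlib 3.10.9 drew the figures. The smallest two-sided p is 0.0286.

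The miRs named were the 6 members, their partner arms and paralogs, the fixed lists, and the 3 miRs most and the 3 least alike in pattern, with exceptions named in the text. Members and lists were chosen with earlier results of these data known. The alternatives were other normalizations, averaged spots, normexp (offset 50, on the median spot signal), the authors' table, other filters and floors, and leaving out each array. In averaging spots, 4429 means at or below 0 were set to 0.1. The fit was tested on simulated data with known changes. No depth can be given for arrays. MiR-486-5p was not analysed here, and data of other assays were not used.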

Additional observations from a re-analysis of the deposited data

Results flagged for a closer look

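Of 40 groups of 4 arrays examined, 1 had an array far from its others, and chance gives about 1 in 20. The normalized log2 signal of miR-133b-3p on P16 was 12.91, whereas the other 3 Non-union arrays shared the value 13.83, to which quantile normalization had tied them.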

How the results depend on the processing

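Of the 4 pan-muscle differences, that of miR-133b-3p turned with normexp (0.062) and ranged from -0.33 to 0.091 as each array was left out, positive only without P16. The difference of miR-206-3p ranged from 0.28 to 0.77, passing the limma threshold without P16, and those of miR-1a-3p and miR-133a-3p from -0.68 to -0.17 and from -0.77 to -0.19. The number of miRs with an unadjusted limma p under 0.05 ranged from 18 without P17 to 115 without P19, with 28 without P16. For the ratio of miR-133b-3p to miR-133a-3p the exact permutation p no longer passed with quantile normalization over all or over detected miRs (0.38), with averaged spots (0.24) and with the authors' table (0.38), nor without P13, P15, P16, P17 or P18 (p = 0.0571 each), and leaving out arrays gave 0.21 to 0.29. The ratio of miR-1a-3p to miR-133a-3p turned to 0.076 under both quantile normalizations and to 0.10 in the authors' table. Leaving out arrays gave 0.66 to 1.34, 0.64 to 1.25 and 0.44 to 0.96 for miR-206-3p over miR-1a-3p, miR-133a-3p and miR-133b-3p, each lowest without P17 and highest without P20. For miR-499-5p over the same miRs it gave 2.11 to 3.71, 2.16 to 3.66 and 1.93 to 3.38, which are no measured sizes, since miR-499-5p was not detected on P16, P17 and P18. Their exact permutation p was 0.0286 each without P20 and did not pass without any other single array. With normexp these differences were 1.40, 1.38 and 1.11, against 2.81, 2.81 and 2.57 from the spot means. Over miR-206-3p the difference was 0.35 with normexp, against 1.80. The cause of these changes was not tested. No paired analysis was possible because the groups share no specimen numbers, and a block for slide or scan was not run, since each row of the slide held 1 group. For the ratios of miR-499-5p, the 75th percentile shifts cancel within an array, and the quantile normalization over detected miRs could not be fitted because miR-499-5p is not among them. Signals of the slow-fibre miRs near the negative controls limit what can be compared.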
